A study of Mus musculus with 2 samples.

Results

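The Rnf genes encode proteins with a RING finger, the zinc-binding fold through which most ubiquitin ligases hold a ubiquitin-charged E2 enzyme beside a substrate. They were followed here as a gene family in a ChIP-seq of Arid1b, an ARID-domain subunit of BAF, one of the SWI/SNF complexes that move nucleosomes. Members were the protein-coding genes of the RefSeq table (assembly GRCm38.p6, the same as mm10) whose symbol starts with Rnf and a number, and there were 83 of them among 21887 protein-coding genes. A member was counted as having a boundary peak where any part of a peak of the deposited list lay within 1 kb of either annotated end of the gene. By this rule 37 members had a boundary peak and 46 had none. The split into these groups was chosen by the deposited peaks, and the family was selected on the fold at Rnf44, one of the highest in the list, so counts and folds are given as a description without a test.

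The series has 2 libraries, 1 of chromatin precipitated with an Arid1b antibody and 1 of input chromatin prepared without antibody. Both were made from primary cultures of dental mesenchyme cells of C57BL/6 mice with wild-type genotype, taken from the apical part of the first lower molars at postnatal day 3.5 to 7.5 and cultured with 10% serum. The series title is about Arid1a, and its design mentions mice in which Gli1-CreER deletes floxed Arid1a. The labels of both samples instead give wild-type mice and, for the ChIP, an antibody to Arid1b, and these are followed here. With 1 library per group nothing can be said about the spread between cultures or animals, and whether the cells of several animals were pooled is not stated in the labels.

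The list held 8318 peaks, whose fold over input ran between 1.37 and 17.1 with a median of 3.72. A ChIP shows where a protein sits and not which genes are expressed, so cell identity could be read only from peak positions. A boundary peak was present at 6 of 8 dental mesenchyme genes (highest at Dlx2, 7.95) and missing at Prrx1 and Lhx6. None of 3 blood and 2 endothelium genes had one.

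RING ligases act at many places in the cell. Some modify histones at genes or at DNA breaks, some sit in the membrane of the endoplasmic reticulum and mark misfolded proteins for destruction, and others sort receptors in endosomes or set the strength of Wnt and TGF-beta signals, which pattern tooth and bone. A second class, the RING-between-RING ligases, passes ubiquitin through a catalytic cysteine of its own before it reaches the substrate.

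The promoter sequences below show the setting of the peaks. They are the RefSeq windows from 250 bases before to 50 bases after an annotated start (GRCm38.p6, read 5′ to 3′ on the strand of the gene), with every CpG dinucleotide in capitals. CpG-dense promoters are typical of widely expressed mammalian genes. The first pair are the 2 tabled starts of Rnf44, at chr13:54693911-54694210 and chr13:54687759-54688058, both on the minus strand. The Rnf157 window at chr11:116412983-116413282 (minus strand) and the Rnf31 window at chr14:55591492-55591791 (plus strand) belong to the next members by fold that have a tabled promoter.
Rnf44 upstream start: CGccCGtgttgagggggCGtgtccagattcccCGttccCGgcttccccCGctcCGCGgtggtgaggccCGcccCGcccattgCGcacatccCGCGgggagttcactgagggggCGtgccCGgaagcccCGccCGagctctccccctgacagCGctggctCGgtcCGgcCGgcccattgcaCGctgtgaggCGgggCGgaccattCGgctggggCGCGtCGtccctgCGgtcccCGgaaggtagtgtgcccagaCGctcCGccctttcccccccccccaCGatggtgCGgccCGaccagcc
Rnf44 second start: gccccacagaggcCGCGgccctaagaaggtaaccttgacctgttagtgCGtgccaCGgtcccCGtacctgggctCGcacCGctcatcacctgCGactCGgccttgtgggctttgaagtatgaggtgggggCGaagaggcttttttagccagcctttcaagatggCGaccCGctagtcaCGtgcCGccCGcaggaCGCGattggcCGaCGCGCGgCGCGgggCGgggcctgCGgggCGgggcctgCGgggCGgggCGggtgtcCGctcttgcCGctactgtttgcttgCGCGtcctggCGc
Rnf157: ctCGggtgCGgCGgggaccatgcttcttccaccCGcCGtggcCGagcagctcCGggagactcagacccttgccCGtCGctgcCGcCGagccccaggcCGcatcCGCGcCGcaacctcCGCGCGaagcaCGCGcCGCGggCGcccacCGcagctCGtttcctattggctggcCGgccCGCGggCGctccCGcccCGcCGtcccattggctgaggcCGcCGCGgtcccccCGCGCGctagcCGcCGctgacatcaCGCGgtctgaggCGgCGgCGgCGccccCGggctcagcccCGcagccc
Rnf31: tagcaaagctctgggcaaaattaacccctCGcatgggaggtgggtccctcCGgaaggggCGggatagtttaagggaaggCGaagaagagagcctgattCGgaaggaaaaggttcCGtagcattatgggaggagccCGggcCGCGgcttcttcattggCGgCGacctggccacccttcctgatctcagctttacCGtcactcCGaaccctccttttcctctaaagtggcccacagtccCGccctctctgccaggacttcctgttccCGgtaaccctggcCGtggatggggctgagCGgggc
The remaining pair come from members without a boundary peak and were chosen after their values were seen, as those with the highest and lowest ratio of observed to expected CpG sites. Rnf6, at chr5:146221408-146221707, and Rnf148, at chr6:23655087-23655386, are both on the minus strand.
Rnf6: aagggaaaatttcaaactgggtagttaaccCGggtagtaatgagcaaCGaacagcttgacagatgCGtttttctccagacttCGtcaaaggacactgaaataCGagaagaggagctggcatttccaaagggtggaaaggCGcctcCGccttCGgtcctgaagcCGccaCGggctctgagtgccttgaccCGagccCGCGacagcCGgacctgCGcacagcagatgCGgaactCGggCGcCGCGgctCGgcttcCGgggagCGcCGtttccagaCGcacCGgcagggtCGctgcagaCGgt
Rnf148: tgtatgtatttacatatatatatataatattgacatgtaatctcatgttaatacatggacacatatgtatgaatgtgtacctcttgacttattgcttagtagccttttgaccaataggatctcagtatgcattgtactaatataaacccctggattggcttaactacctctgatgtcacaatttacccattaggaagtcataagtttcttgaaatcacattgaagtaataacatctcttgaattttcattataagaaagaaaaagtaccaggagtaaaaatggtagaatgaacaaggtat
The upstream Rnf44 window held 35 CpG sites and lay wholly inside its peak, all 300 bases of it. The second Rnf44 window held 34 CpG sites, with 145 of its bases inside a peak. The Rnf157 window held 48 sites, with 254 bases inside its peak. The Rnf31 window held 17, and only 16 of its bases were inside a peak, because the peak there lay upstream. Rnf6 held 28 CpG sites and had no base in a peak, and Rnf148 held none at all.

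Rnf44, which encodes a RING-H2 protein, had the second highest fold of all 8318 peaks. The peak, at chr13:54693286-54694588, was 1303 bp wide with a summit pileup of 127 fragments, against an expected input level of 8.68. Its fold was 13.2, with an exact Poisson 95% interval of 11.0 to 15.7 that reflects counting of ChIP fragments alone. The summit lay 32 bp inside the upstream boundary of the gene and 84 bp upstream of the nearest tabled start.

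**Figure D1:**
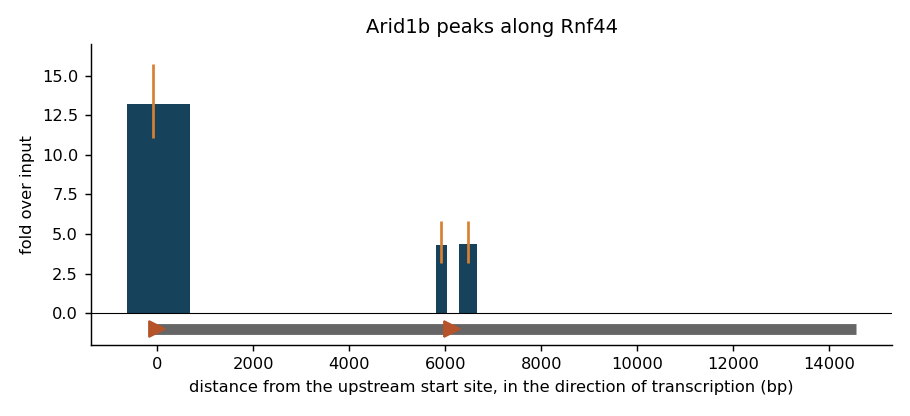
Arid1b peaks along Rnf44, placed by their distance in bp from the upstream start site in the direction of transcription. Bars span each peak and reach its fold over input, orange lines are exact Poisson 95% intervals, the grey bar is the gene and the triangles are tabled starts. The tall peak covers the upstream start (13.2), and a pair of lower peaks flanks the second start (4.33 and 4.34).

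Rnf44 carried Arid1b peaks over its upstream start and beside its second one. The starts lie 6152 bp apart, and the second one lay in no peak but between 2 narrower interior peaks. One, at chr13:54687914-54688146, had a fold of 4.33 (3.14 to 5.84) with its summit 248 bp upstream of that start. The other, at chr13:54687289-54687675, had 4.34 (3.15 to 5.83) with its summit 320 bp downstream. Their intervals lie below that of the peak at the upstream start. The family was selected on that peak, so the gap is a description only. Of the 5 Arkadia-type and RING-H2 ligases, Rnf44 and Rnf111 had a boundary peak and the others, Rnf6 and Rnf165 among them, had none.

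Rnf5 came next. It encodes a ligase anchored in the endoplasmic reticulum membrane that helps clear misfolded proteins. Its peak at chr17:34603471-34603969 had a fold of 9.71 (7.85 to 11.9) and a pileup of 93, and ranked 21 in the list. The summit lay 246 bp outside the gene. The same peak also came within 1 kb of an annotated end of its neighbour Agpat1, so the signal cannot be given to one gene. Rnf157, a ligase studied mainly in neurons, had 6.71 (5.19 to 8.54) at chr11:116413029-116413502, with a pileup of 64 and its summit 140 bp upstream of the start. Rnf31, the catalytic subunit of the complex that builds linear ubiquitin chains, had 5.78 (4.38 to 7.496) at chr14:55591261-55591507, with a pileup of 55. Its summit lay 367 bp upstream of the start. The peak also came within 1 kb of an annotated end of the proteasome activator gene Psme2. Rnf214 had 5.47 (4.17 to 7.06) at chr9:45906572-45906829, with a pileup of 57 and its summit 194 bp inside the gene, a peak shared with Pcsk7. Rnf167, an endosomal and lysosomal ligase with a protease-associated domain, completed the highest 6 at 4.98 (3.70 to 6.57), with a pileup of 48 at chr11:70647293-70647843. It had 3 boundary peaks in all, and this one was shared with Slc25a11.

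**Figure D2:**
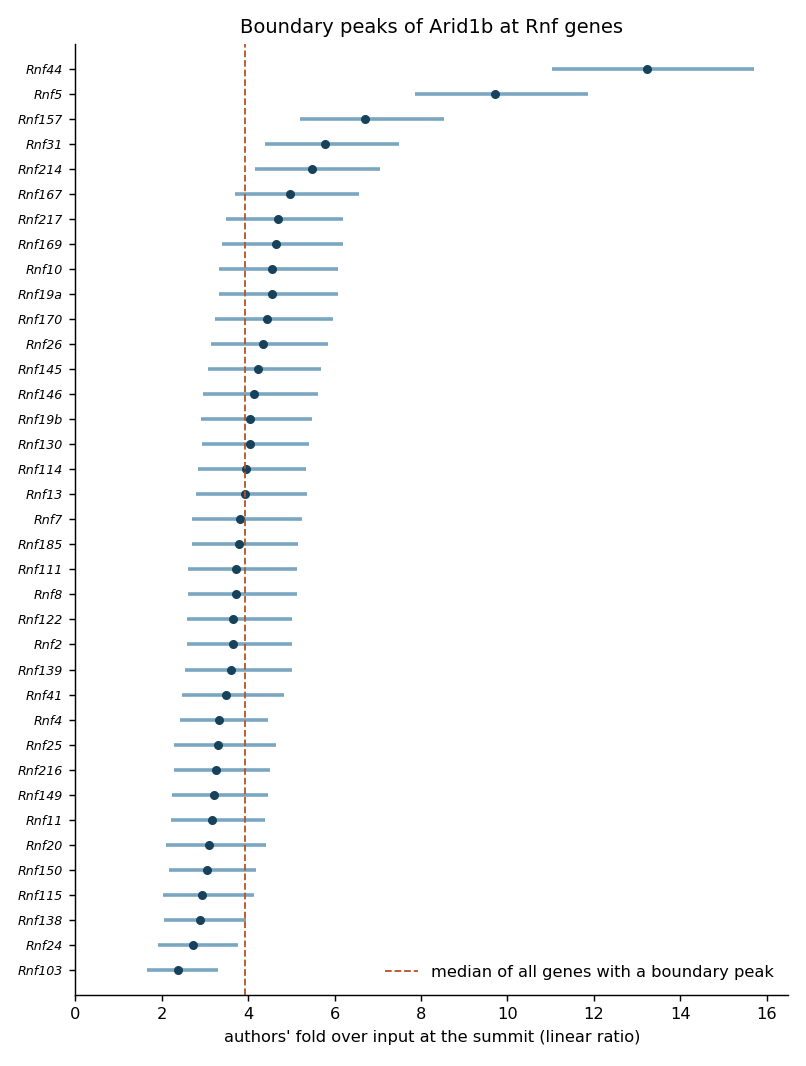
Authors' fold over input (x axis, linear ratio) at the strongest boundary peak of each of the 37 Rnf genes that have one, with exact Poisson 95% intervals. The dashed line is the median over all genes with a boundary peak (3.92). Rnf44 and Rnf5 stand to the right, and most other intervals cross the line.

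Most of the other folds could not be told apart. Over the 37 members the strongest boundary peak had a median fold of 3.82 (quartiles 3.30 and 4.54), against 3.92 (3.44 and 4.54) over all 4857 genes with a boundary peak. A fold of at least 5 was reached by 5 of the 37 (13.5%) and by 720 of the 4857 (14.8%), that is by 6.02% of the 83 members and 3.29% of all protein-coding genes. The Poisson interval of 30 of the 37 members included the family median, so at this depth their order could not be resolved. The Rnf44 fold, on which the family was selected, was 3.46 times the family median. The median peak width was 317 bp in members and 318 bp in all genes. The lowest fold was that of Rnf103, an endoplasmic reticulum ligase, at 2.38 (1.67 to 3.30). Its pileup of 34 stood over an expected input level of 13.7. At 17 of the 37 peaks the expected input stood at the genome-wide level of 8.68, and at the others it was higher.

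The family had boundary peaks in 44.6% of its members (37 of 83, exact binomial 95% interval 33.7 to 55.9), where 22.2% of all protein-coding genes had one. Counting peaks inside the gene and up to 10 kb beyond it gave 55.4% of members (46 of 83) and 31.7% of all genes. A window of 500 bp gave 31 of 83 members and 20% of all genes, and −log10 q of at least 5 gave 33 members and 20.5% of all genes. With −log10 q of at least 10 there were 16 members and 10.5% of all genes, and over peaks with the input at background 17 members and 11% of all genes. A window of 5 kb gave 41 members and 27% of all genes. Within 1 kb of a tabled start there were 28 of 66 members and 23.9% of all genes with such a table entry. With only summits counted, 34 members had one within 1 kb (41.0%), against 21.5% of all genes. The binomial intervals treat genes as independent draws and do not stand in for replicate libraries. Just inside the 1 kb window were Rnf150 (nearest peak edge 947 bp from the boundary), Rnf169 (929 bp) and Rnf138 (830 bp), for which the summit lay beyond 1 kb. Just outside were Rnf220 (1438 bp), Rnf151 (2198 bp) and Rnf186 (4022 bp).

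The strongest boundary peak lay at the start of the gene in every member whose strand was known. The strand was known for 29 of the 37 members from the promoter table, and in 29 of 29 the strongest boundary peak was at the start (exact binomial 95% interval 88.1 to 100%). Over all genes with a known strand it was 3680 of 3949 (93.2%). Weaker boundary peaks could lie elsewhere, as at Rnf167, where one at chr11:70652130-70652547 lay beyond the other end of the gene. For the remaining members the strand was not used here. Relative to the nearest tabled start, the summit lay downstream in 22 members and upstream in 7, with a median of 195 bp into the gene (quartiles 18 and 337 bp). It was within 500 bp of a start in 23 of the 29. The exception beyond 1 kb was Rnf20, whose summit was 385 bp inside the gene boundary but 6235 bp upstream of its tabled start.

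**Figure D3:**
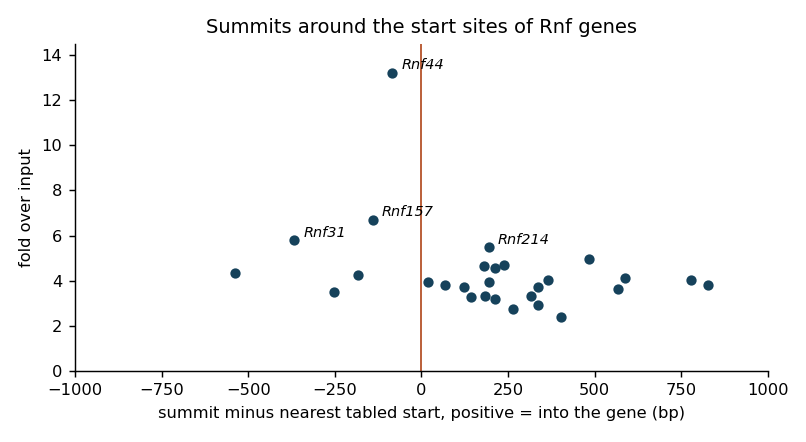
Position of the boundary peak summit relative to the nearest tabled start (x axis, bp, positive into the gene) against the authors' fold over input (y axis), 1 point per Rnf gene, for the 28 within 1 kb. Most summits lie to the right of the start, while the 3 highest folds shown, at Rnf44, Rnf157 and Rnf31, lie to its left.

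Peaks were often shared with a neighbour. In 10 of the 37 members (27.0%) the strongest boundary peak also came within 1 kb of an annotated end of another protein-coding gene. The same held for 1441 of all 4857 genes with a boundary peak (29.7%). Besides Rnf5, Rnf31, Rnf214 and Rnf167 the 10 members were Rnf170 with Hook3, Rnf146 with Gm30698, Rnf114 with Spata2, Rnf41 with Nabp2, Rnf25 with Stk36 and Rnf115 with Polr3c. Long noncoding RNA genes are not in these counts. The strongest peaks of Rnf19b, Rnf185, Rnf8, Rnf20 and Rnf24 each lay within 1 kb of an annotated end of one.

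Ligases of chromatin and the DNA damage response had boundary peaks at 7 of 11 members. The highest was at Rnf169 (4.65), whose product binds ubiquitylated histones beside DNA double-strand breaks. Rnf8, which starts that histone ubiquitylation, had 3.72 (2.62 to 5.13), whereas Rnf168, which extends it, had its nearest peak 31239 bp away. Rnf2, the catalytic RING subunit of Polycomb repressive complex 1, had 3.65 (2.58 to 5.01). Rnf4, which recognises SUMO-modified proteins, had 3.33 and Rnf138 had 2.88. Rnf20 had 3.10 (2.11 to 4.40), while Rnf40, its partner in histone ubiquitylation, had its nearest peak 11270 bp away. Rnf113a1 and Rnf113a2 had none within 10 kb.

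Of 5 ligases of Wnt and TGF-beta signalling, 3 had a boundary peak (60%, 14.7 to 94.7). That interval includes the 22.2% of all genes. Rnf146, which marks Axin for destruction once it carries poly-ADP-ribose and so favours Wnt signalling, had 4.13 (2.97 to 5.61). Rnf111, also called Arkadia, removes inhibitors of TGF-beta signalling and had 3.72 at its boundary. A further peak of 5.27 lay 4007 bp outside the other end of Rnf111, within 1 kb of the mitotic cyclin gene Ccnb2. Rnf11 had 3.16. Rnf43, which takes Frizzled receptors off the cell surface, had its nearest peak 13795 bp away. Rnf220 had no boundary peak but held one of the strongest peaks of the family, inside the gene at chr4:117492473-117494655, with a fold of 8.78 (7.02 to 10.8), a pileup of 84 and rank 43 in the list. Its summit lay 3607 bp inside the upstream boundary of the gene and 117984 bp upstream of the only tabled start. A narrower peak of 4.03 stood beside it, 1544 bp from that boundary, and another of 3.92 lay 17802 bp from the other one.

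Among the RING-between-RING ligases 5 of 8 had a boundary peak (62.5%, 24.5 to 91.5), beside 22.2% of all genes. After Rnf31 came Rnf217 (4.69, 3.48 to 6.19), Rnf19a (4.54, 3.32 to 6.08), its paralogue Rnf19b (4.04, 2.92 to 5.47) and Rnf216 (3.25, 2.28 to 4.51). The Rnf19a and Rnf19b intervals overlap. Rnf216 held 3 further peaks deep inside the gene, the highest 4.67. The paralogues Rnf144a and Rnf144b both lacked a peak within 10 kb, and Rnf14 had a single interior peak of 4.88 (3.61 to 6.45).

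Both kinds of membrane ligase included members with and without a boundary peak. Of 13 in the endoplasmic reticulum and other membranes, 7 had one (53.8%, 25.1 to 80.8), beside 22.2% of all genes. After Rnf5 these were Rnf170 (4.44), which acts on inositol trisphosphate receptors, Rnf26 (4.34), Rnf145 (4.24) and Rnf139 (3.61), both tied to sterol control, Rnf185 (3.79) and Rnf103. Rnf5 and Rnf185 encode paralogues, and the intervals of their peaks were 7.85 to 11.9 and 2.71 to 5.16. The Rnf5 peak is also near Agpat1, so the gap cannot be given to the paralogues alone. Of 10 transmembrane ligases with a protease-associated domain, 5 had one (50%, 18.7 to 81.3). These were Rnf167, Rnf130 (4.03), Rnf13 (3.92), Rnf149 (3.21) and Rnf150 (3.06). Of 7 endosome and receptor trafficking ligases, 5 did (71.4%, 29.0 to 96.3). Rnf41 had 3.496 (2.46 to 4.82) and Rnf115 had 2.93, while Rnf126, a paralogue of Rnf115, had its nearest peak 69690 bp away. Role groups overlap, and Rnf167 and Rnf13 count in both of the last.

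In the pair linked to the cell cycle, Rnf7, a RING subunit of cullin ligases, had 3.82 (2.71 to 5.25). Rnf123, part of a ligase for the cell cycle inhibitor Cdkn1b, had its nearest peak 48553 bp away. In the small family of Rnf114, which had 3.95, Rnf138 also had a boundary peak and Rnf125 and Rnf166 did not. Of the 14 members in no role group 5 had one (35.7%, 12.8 to 64.9), beside 22.2% of all genes. These were Rnf214, Rnf10 (4.54), Rnf122 (3.65), Rnf25 (3.30) and Rnf24 (2.73).

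Members known from the germ line, brain, heart and innate immunity formed small groups. None of 8 germ line and testis genes had one, Rnf17, Rnf32, Rnf133, Rnf148 and Rnf212 among them. The exact binomial 95% interval of that share reaches 36.9%, which includes the 22.2% of all genes. Of 6 brain and heart genes only Rnf157 had one (16.7%, 0.421 to 64.1), and of 4 innate immunity genes only Rnf31 (25%, 0.631 to 80.6). Both intervals include the share of all genes. Rnf213, which codes for a giant ligase with ATPase modules, had its nearest peak 115629 bp away. Differences between role groups were not tested.

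**Figure D4:**
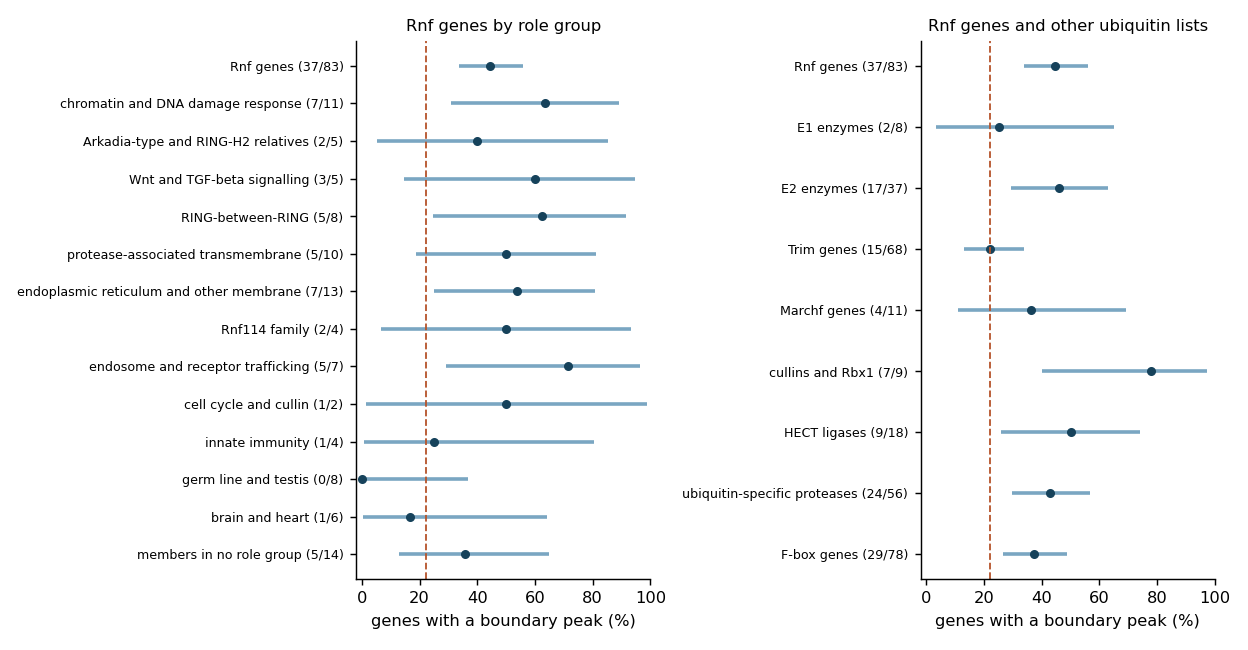
Share of genes with an Arid1b boundary peak (x axis, percent) in the whole Rnf family and its role groups (left) and in other ubiquitin pathway lists (right), with exact binomial 95% intervals over genes. The dashed line is the 22.2% of all protein-coding genes. The whole family lies above the line at 44.6%, and intervals of the small role groups are wide.

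Other ubiquitin pathway genes varied around the family. Genes whose symbol starts with Ube2, mostly E2 enzymes, the partners of RING fingers, had a boundary peak at 17 of 37 (45.9%, 29.5 to 63.1). The highest was at Ube2c (7.02). Cullins and Rbx1, which form modular RING ligases, had one at 7 of 9 (77.8%, 40.0 to 97.2), led by Cul2 (8.47). HECT ligases had 9 of 18 (50%, 26.0 to 74.0), led by Nedd4 (5.37). Genes whose symbol starts with Usp, mostly deubiquitinases, had 24 of 56 (42.9%, 29.7 to 56.8), with Usp3 (6.33) highest, and that count includes Usp6nl, which is not a protease. F-box genes had 29 of 78 (37.2%, 26.5 to 48.9), led by Fbxl14 (10.5). Marchf genes had 4 of 11 (36.4%, 10.9 to 69.2), and activating enzymes for ubiquitin and its relatives had 2 of 8 (25%, 3.19 to 65.1). The other large RING family, Trim, had boundary peaks at 15 of 68 genes (22.1%, 12.9 to 33.8), the share of all protein-coding genes, with Trim3 highest (5.58). These lists were filled by symbol or by hand and were not compared by a test.

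Median CpG density was higher at members with a boundary peak than at members without, with overlapping intervals. CpG density was measured as observed over expected CpG sites in the 300-base window of the most upstream tabled start. Such a window was tabled for 66 members and for 17492 of all protein-coding genes. The median ratio was 0.835 in 29 members with a boundary peak (quartiles 0.709 and 0.903) and 0.723 in 37 members without one (0.286 and 0.892). The order-statistic 95% intervals of these medians were 0.721 to 0.900 and 0.395 to 0.833. The difference of 0.113 was 0.0649 with a window of 500 bp and 0.0403 with 5 kb. Over all genes the median was 0.831 with a boundary peak and 0.419 without. The medians of members with and without a peak stood closer together than those of all genes. The interval of members without a peak includes the 0.419 of all genes without one, so this smaller gap is not resolved. Of the 37 members without a peak, 24 had a ratio of at least 0.6. Rnf6 (1.04), Rnf166 (1.03) and Rnf34 (1.01) were the highest of these. Rnf6, which encodes a RING-H2 ligase, had its nearest peak 163864 bp away, and Rnf34 had it 28803 bp away.

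**Figure D5:**
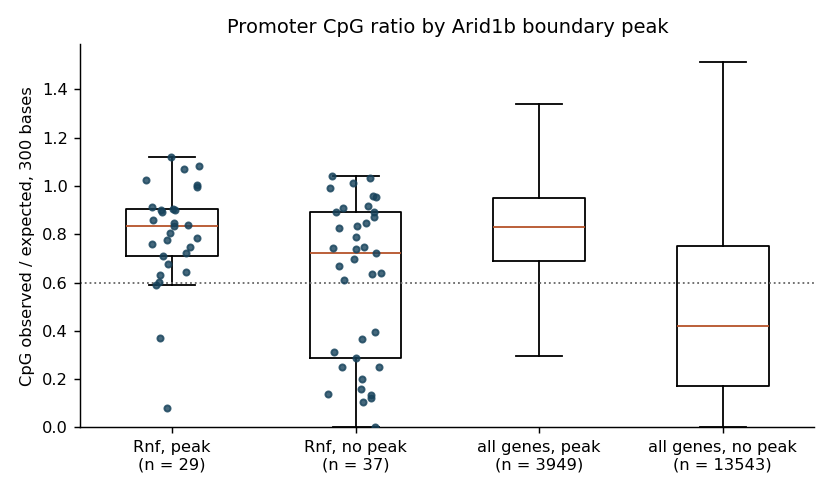
CpG observed over expected in 300 bases around the start (y axis), for Rnf genes with and without a boundary peak (points are genes) and for all protein-coding genes with and without one, members included. Boxes span the quartiles with the median in orange, whiskers reach the farthest value within 1.5 times the box height, and the dotted line marks 0.6. Most Rnf genes of both groups lie above the line, while the median of all genes without a peak lies below it (0.419).

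The family is richer in CpG-dense promoters than the gene set as a whole. A ratio of at least 0.6 was found in 50 of 66 members (75.8%, 63.6 to 85.5) and in 48.4% of all genes. Within that class 26 of 50 members had a boundary peak (52.0%, 37.4 to 66.3), against 39.4% of all genes of the class. Below 0.6 it was 3 of 16 members (18.8%, 4.05 to 45.6), against 6.80% of all genes. In both classes the interval of the members includes the value of all genes. Among Trim genes, 9 of the 20 with a ratio of at least 0.6 had a boundary peak. The part of CpG density in the shares of the Rnf and Trim families was not tested further. The 3 members with a peak and a low ratio were Rnf146, Rnf185 and Rnf20, the last measured at a start 6235 bp from its peak summit. GC content was 60.3% with a peak and 58.7% without (medians).

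The median annotated length was 26876 bp in members with a boundary peak (order-statistic 95% interval 23529 to 43214 bp) and 15398 bp in members without one (7283 to 44984 bp). The intervals overlap. Over all genes the medians were 24054 bp with a boundary peak and 15545 bp without. With a window of 500 bp the order of the members turned round, to a difference of -299.5 bp.

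Promoter motifs are given for members with and without a boundary peak beside the same split over all genes. Each was searched by its letters on both strands in the same 300-base windows, where matches of different motifs can overlap. The Sp/Klf motif GGGCGG was present in 23 of 29 promoters with a peak (79.3%) and 19 of 37 without (51.4%). Over all genes it was present in 72.3% with a peak and 38.8% without, and in 46.3% of all promoters. Counted without overlaps between copies, the upstream Rnf44 window held 4, as did the window of its second start, and the Rnf6 window held none. The ETS motif CGGAAG was present in 14 of 29 (48.3%) and 7 of 37 (18.9%), against 35.2% and 17.5% over all genes (21.5% of all promoters). The CCAAT box was present in 13 of 29 (44.8%) and 9 of 37 (24.3%), against 40.6% and 38.8% over all genes (39.2% of all promoters). The NRF1 motif was present in 6 of 29 and 1 of 37, against 10.5% and 5.55% over all genes (6.66% of all promoters). The AP-1 motif TGANTCA was present in 1 of 29 and 3 of 37 (7.03% of all), the TEAD motif GGAATG in 4 and 3 (13.5% of all), and the CRE motif TGACGTCA in 1 and 0 (2.33% of all). GC content at these promoters is given above, and its part in the motif counts was not tested.

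For the 46 members without a boundary peak, the nearest peak lay a median of 43546 bp from a gene end. In 16 of them it was more than 100 kb away. The farthest was that of Rnf128, an X-linked gene, at 2456577 bp. These distances are given for members only, so whether they are long for genes without a boundary peak was not tested. All members on chromosomes X (3), 12 (2) and 16 (1) lacked a boundary peak. The share of all genes was not counted by chromosome, and these numbers are too small to compare chromosomes. Widening the span to the whole gene with 10 kb on either side raised the count from 37 to 46 of 83 members. Over all protein-coding genes it raised the count from 4857 to 6943 of 21887. Of the 46 members without a boundary peak, 9 had a peak somewhere in this wider span. It lay inside the gene in 3, Rnf220 and Rnf14 among them, and outside in the other 6, each time within 1 kb of another gene, such as Rpl22 near Rnf207 (4.85) or Tubb4b near Rnf224 (5.46). In total 67 peaks lay in or within 10 kb of a member, of which 42 were boundary peaks.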

How the data were processed

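Arid1b ChIP and input libraries (1 each) were compared through the deposited peak list. FastQC 0.11.8, Bowtie2 2.2.5, Picard, MACS2 2.1.1 and mm10 are named, per the submitters' processing notes, without roles or settings. Read depth and filters were not given in these sources. The deposited values per peak are the authors' fold over input (a linear ratio), −log10 p-value, −log10 q-value, a score, which was not used, and the summit offset. The authors' values describe and filter peaks within the list only. The list sets 1 ChIP library against 1 input library, per the peak names.

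Summit pileup and expected level were recovered from the fold and p-value, assuming a pseudocount of 1 and a Poisson tail, and 100% of peaks were solved within 0.001 in −log10 p. Genes, promoters and strand came from RefSeq tables of GRCm38.p6 (coordinates 1-based). Peak assignment was tested on simulated peaks. Python 3.11.15, pandas 2.3.3, numpy 2.4.6 and scipy 1.17.1 were used. Every member that had a boundary peak is named, with full values for the highest 6, and others are members of the role groups. Genes named for distance, CpG density or interior peaks were picked after their values were seen. The members and lists were chosen with earlier results of these data known. Protein sequences were not used here, so a planned search for RING patterns was not run. A few values are not reported here.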

Additional observations from a re-analysis of the deposited data

How the results depend on the processing

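The count of 37 Rnf genes with a boundary peak, of 83, stayed within 1.5 times under windows of 500 bp (31) and 5 kb (41), summits within 1 kb (34), −log10 q of at least 5 (33), every gene type (38 of 85) and peaks in the gene or within 10 kb (46). It fell to 16 with −log10 q of at least 10, to 5 with fold of at least 5 and to 17 over peaks with input at background. This last choice, tabled starts (28 of 66) and the CpG class (26 of 50) were added after seeing the data. In the same order of settings, the share of all genes, 22.2%, was 20.03% for 500 bp, 27.0% for 5 kb, 21.5% for summits, 20.5% for −log10 q of 5, 31.7% for 10 kb, 10.5% for −log10 q of 10, 3.29% for fold of 5, 11.0% for input at background, 23.9% for tabled starts and 39.4% in the CpG class. Stricter lists hold fewer peaks by construction. The median fold of member peaks, 3.82, was 4.595 with −log10 q of at least 10 and 6.71 with fold of at least 5, which keep only stronger peaks. The length difference between members with and without a peak was 11479 bp and, with 500 bp, -299.5 bp (the cause was not tested). The CpG difference, 0.113, was 0.0649 with 500 bp and 0.0403 with 5 kb. The start held 90.9% of the strongest peaks with 5 kb, and 100% with 500 bp, summits within 1 kb and −log10 q of at least 5, the other settings run for it. No paired analysis was possible because there was 1 library per group. At a median pileup of 38 fragments most folds could not be ranked.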
